A study of Mus musculus with 2 samples.

Results

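The 8 E2F genes E2f1 to E2f8 and the Myc family genes Myc and Mycn were followed in RNA sequencing of mouse forebrain at embryonic day 11.5, strain B6NCrl, healthy embryos of both sexes. The members were taken by name: each of the 10 symbols matched 1 of the 43346 gene rows of the deposited tables through its gene ID. The study has one group of 2 libraries and no treatment or mutant. Replicate 1 was a pool of 109 embryos' forebrains and replicate 2 a pool of 88, and each library was made from RNA equal to that of 1 cell. Total RNA without the short RNAs was carried through a SmartSeq protocol with spike-ins. Although its title speaks of single cells, the assay used pooled tissue, so each library is 1 bulk sample, in which fewer cells of a type and less RNA per cell cannot be told apart.

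E2F proteins are transcription factors that switch on the genes for DNA replication and mitosis as a cell commits to divide. E2f1, E2f2 and E2f3 encode the activators. E2f4 and E2f5 encode repressors that work through the pocket proteins, the retinoblastoma protein and its relatives, E2f6 encodes a repressor of a Polycomb-type complex, and E2f7 and E2f8 encode the atypical repressors, which bind DNA without a DP partner and lower E2F target genes late in the cycle. Myc and Mycn encode basic helix-loop-helix proteins that bind DNA as dimers with Max and raise genes for growth and ribosome production, and in the mouse brain Mycn is known for expanding the pool of neural progenitors.

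The promoters are shown first because E2F genes are themselves known E2F targets. RefSeq start-site windows of 300 bases on GRCm38.p6, 250 before and 50 from the start on, were matched for 7 of the 10 genes, in 9 windows, and E2f4, E2f5 and Myc had none. They were searched on both strands for the textbook E2F words TTTGGCGC, TTTCCCGC, TTTCGCGC and TTTGCCGC, overlaps allowed, and for CACGTG, the E-box that Myc and Max bind. An E2F word stood in windows of 4 of the 7 genes (57.1%), namely E2f2, E2f3, E2f7 and Mycn, against 2.6% of all 27025 genes with a window. By window the shares were 4 of 9 (44.4%) and 2.26% of all 32851. The members' windows had a median GC content of 66.7%, against 52.7% over all windows, and the part of base composition in the match was not tested. No E2F word of this spelling stood in the windows of E2f1, E2f6 and E2f8, which says nothing about other sites. In the stretches below, all of which lie before the annotated gene or, for the last, before an internal start, capitals mark the words found.
Mycn, chr12:12941915-12942086, minus strand: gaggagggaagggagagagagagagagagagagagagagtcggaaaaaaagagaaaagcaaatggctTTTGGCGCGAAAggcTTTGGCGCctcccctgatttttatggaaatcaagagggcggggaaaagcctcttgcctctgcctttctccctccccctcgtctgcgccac
E2f3, first start, chr13:29986064-29986313, minus strand: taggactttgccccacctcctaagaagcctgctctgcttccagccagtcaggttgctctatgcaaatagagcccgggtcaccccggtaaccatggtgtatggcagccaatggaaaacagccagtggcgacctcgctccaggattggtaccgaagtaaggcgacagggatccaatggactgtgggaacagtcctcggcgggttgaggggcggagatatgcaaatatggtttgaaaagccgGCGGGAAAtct
E2f7, chr10:110745189-110745438, plus strand: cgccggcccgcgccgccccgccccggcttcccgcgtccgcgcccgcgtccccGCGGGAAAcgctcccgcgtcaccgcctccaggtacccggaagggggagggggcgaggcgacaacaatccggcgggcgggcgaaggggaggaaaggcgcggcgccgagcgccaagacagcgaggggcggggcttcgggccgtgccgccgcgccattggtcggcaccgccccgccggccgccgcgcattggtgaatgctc
E2f2, chr4:136172024-136172323, plus strand: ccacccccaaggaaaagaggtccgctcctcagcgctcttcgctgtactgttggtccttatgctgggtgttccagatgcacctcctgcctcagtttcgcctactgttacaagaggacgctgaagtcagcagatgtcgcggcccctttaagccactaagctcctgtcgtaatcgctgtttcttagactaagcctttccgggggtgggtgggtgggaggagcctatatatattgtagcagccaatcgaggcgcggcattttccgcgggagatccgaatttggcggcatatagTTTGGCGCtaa
E2f3, internal start, chr13:29984392-29984491, minus strand: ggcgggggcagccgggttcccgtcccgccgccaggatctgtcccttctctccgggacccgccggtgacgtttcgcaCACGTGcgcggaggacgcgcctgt
Counted from the RefSeq start as +1, with no zero, Mycn held 3 words, beginning at -183, -179 and -168, the first 2 of them overlapping. The word of E2f3 began at -11 from the first start and that of E2f7 at -198, both as the reverse-strand form GCGGGAAA. In E2f2 the word began at base 40 after the RefSeq start, still upstream of the gene as GENCODE draws it. CACGTG was found in 1 member window (11.1%), at -24 from the internal start of E2f3, against 7.15% of all windows.

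Replicates 1 and 2 held 28639678 and 28948074 expected counts (estimated reads per gene), so a count of 0 allows up to 0.105 and 0.104 CPM (counts scaled to the total of the library). At 1 TPM or more (TPM is a level scaled for transcript length and depth), 8928 and 9813 genes were detected, and spike-ins took 4.35% and 3.35% of counts. The forebrain markers Nr2f1, Pax6, Nr2e1, Otx2, Lhx2, Sox2 and Emx2 were detected in both libraries, and all 5 midbrain and hindbrain markers were listed at 0. The pools were not alike in their markers: Pax6 was at 85.5 and 30.1 TPM, Otx2 at 86.3 and 23.6 TPM and Emx2 at 20.6 and 7.95 TPM, while Dcx, a gene of young neurons, was at 16.1 and 95.6 TPM. Blood was present: 5 haemoglobin genes held 3.11% and 3.73% of all TPM. Of blood markers with a mean TPM of 1 or more, 6 of 6 were higher in replicate 2, and none differed 2-fold. Their median log2 difference, replicate 2 minus replicate 1, was 0.22, against 0.12 over all genes at that mean TPM. E2f2 and E2f4 are known to act in mouse red cell development, and the part of blood, of marker differences and of spike-in share in the members' levels was not tested.

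Each of the 10 genes reached 1 TPM in at least 1 library, and 4 of them in only 1. At 1 TPM or more, 6 genes were detected in both libraries: E2f3, E2f4, E2f6, E2f7, E2f8 and Mycn. E2f1, E2f2 and Myc reached it in replicate 2 alone, and E2f5 in replicate 1 alone. That 60% compares with 30.4% of all protein-coding genes, and with 62.5% of genes detected in at least 1 library. Among the 8 members with a mean of 10 TPM or more, 5 (62.5%) differed 2-fold between the libraries on the log2(TPM + 1) scale. Of the 7680 genes at that level, 51.3% did. A gene near 0 in 1 library can reach that mean only through the other, and the rule then calls it. E2f3, E2f5 and Myc were called in this way, and the same holds for the genes of the background. The median absolute log2 difference was 2.24 over the 10 members and 1.45 over the genes that averaged 1 TPM or more. Members under 1% of whose depth-scaled counts lay in one library numbered 4 of 10 (40%), namely E2f1, E2f2, E2f5 and Myc, against 29.8% of all genes with a mean TPM of 1 or more. With 1 library per pool, no difference between libraries was tested, and none is given a p-value.

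**Figure D1:**
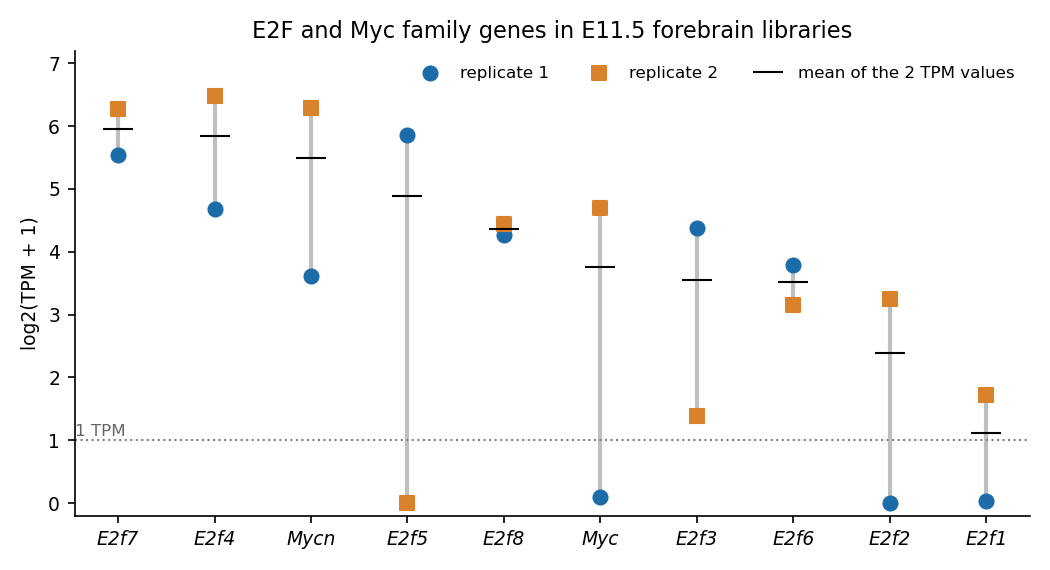
Level of each gene as log2(TPM + 1) on the y axis, with circles for replicate 1, squares for replicate 2, a dash for the mean of the 2 TPM values and a dotted line at 1 TPM. E2f7, E2f8 and E2f6 lie close together in the 2 libraries, while E2f5, Myc, E2f2 and E2f1 are near 0 in one of them.

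By mean TPM the order was E2f7, E2f4, Mycn, E2f5, E2f8, Myc, E2f3, E2f6, E2f2 and E2f1, but no neighbours in it could be told apart: the ranges of the 2 libraries overlapped in 9 of 9 neighbouring pairs. Of all 45 pairs, 17 had ranges that did not overlap. With 2 values per gene, ranges of genes at a like level often miss each other too. No such share was computed over pairs of all genes, so the pairs below describe these libraries and give no tested order. E2f7 lay above E2f8, Myc, E2f3, E2f6, E2f2 and E2f1, but on coding transcripts alone only above E2f2 and E2f1. E2f4 lay above E2f8, E2f3, E2f6, E2f2 and E2f1, E2f8 above E2f6, E2f2 and E2f1, Mycn above E2f2 and E2f1, and E2f6 above E2f1.

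The 3 activators had mean levels of 10.7 TPM or less, and none stood at a like level in the 2 libraries. E2f3 (ENSMUSG00000016477.13, chromosome 13, 29906575 to 29986063 on mm10, minus strand) had 19.8 TPM in replicate 1 and 1.61 TPM in replicate 2, from 1417 and 164 counts. It is the activator of highest mean level here, at 10.7 ± 12.8 TPM (SD, n = 2), and its 2 libraries did not lie close, with a log2 difference, replicate 2 minus replicate 1, of -2.99. E2f2 (chromosome 4, 136172394 to 136196057) had 0 counts in replicate 1 and 874 counts, 8.49 TPM, in replicate 2. Its CPM in replicate 2 was 288 times the 3-count floor of replicate 1. E2f1 (chromosome 2, 154559407 to 154569892), the founding member of the family, had 1 count in replicate 1 and 135 counts, 2.31 TPM, in replicate 2. Its CPM was 134 times as high in replicate 2, and counting error alone spans 23.6 to 5314 (95%). So E2f1 and E2f2 were seen in replicate 2 and E2f3 mostly in replicate 1, and the class summed to 19.8 and 12.4 TPM.

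E2f4 and E2f5, the pocket-protein-dependent repressors, differed in opposite directions between the libraries. E2f4 (ENSMUSG00000014859.8, chromosome 8, 105297663 to 105305370) had 24.6 TPM in replicate 1 and 88.5 TPM in replicate 2, from 1040 and 3716 counts. Its effective length was the same in both, 1893 bases, so the log2 difference of 1.81 in TPM is close to that of its CPM, 1.79. E2f5 (chromosome 3, 14578641 to 14606309) had 57.2 TPM from 2152 counts in replicate 1 but no counts in replicate 2. Its CPM in replicate 1 was 725 times the 3-count floor of replicate 2. Summed, the pair stood at 81.8 TPM in replicate 1 and 88.5 TPM in replicate 2. The end of E2f5 overlaps 1810022K09Rik on the other strand, which had 3265 and 1398 counts, so some reads of that end may not be separable, as no source used here gives the use of strand.

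E2f6 (chromosome 12, 16810963 to 16839742) had 12.9 TPM in replicate 1 and 7.92 TPM in replicate 2, from 670 and 408 counts. At 10.4 ± 3.51 TPM (SD, n = 2) it was a low gene with a modest gap, a log2 difference of -0.64. Of the 2129 genes with a mean from 10 to below 20 TPM, the range that also holds E2f3, E2f8 and Myc, 75.6% differed 2-fold, and of these 4 members 2 did.

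Both atypical repressors were detected in both libraries without a 2-fold difference. E2f7 (ENSMUSG00000020185.12, chromosome 10, 110745439 to 110787384) had 45.8 TPM in replicate 1 and 76.2 TPM in replicate 2, and its counts, 2432 and 2983, lay closer than its TPM. Its mean of 61.0 ± 21.5 TPM (SD, n = 2) was the highest of the 10 genes with all transcripts counted, and the mean of its coding transcripts, 20.5 ± 15.2 TPM, was below those of E2f4, Mycn and E2f5. E2f8 (chromosome 7, 48866429 to 48881596) had 18.4 TPM in replicate 1 and 20.9 TPM in replicate 2, from 1286 and 1661 counts. By TPM its log2 difference was 0.17 and that of E2f7 was 0.72, while by counts with edgeR's TMM factors the order turned, at 0.32 for E2f8 and 0.25 for E2f7. Of all genes with a mean from 50 to below 100 TPM, where E2f7 and E2f4 lie, 42.9% differed 2-fold. The 3 protein-coding genes nearest to E2f7 in log2(TPM + 1) over these 2 libraries were Amz2 at 45.1 and 76.9 TPM, Med1 at 45.4 and 75.02 TPM, and Ckap2 at 44.5 and 75.6 TPM, a likeness of level alone.

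**Figure D2:**
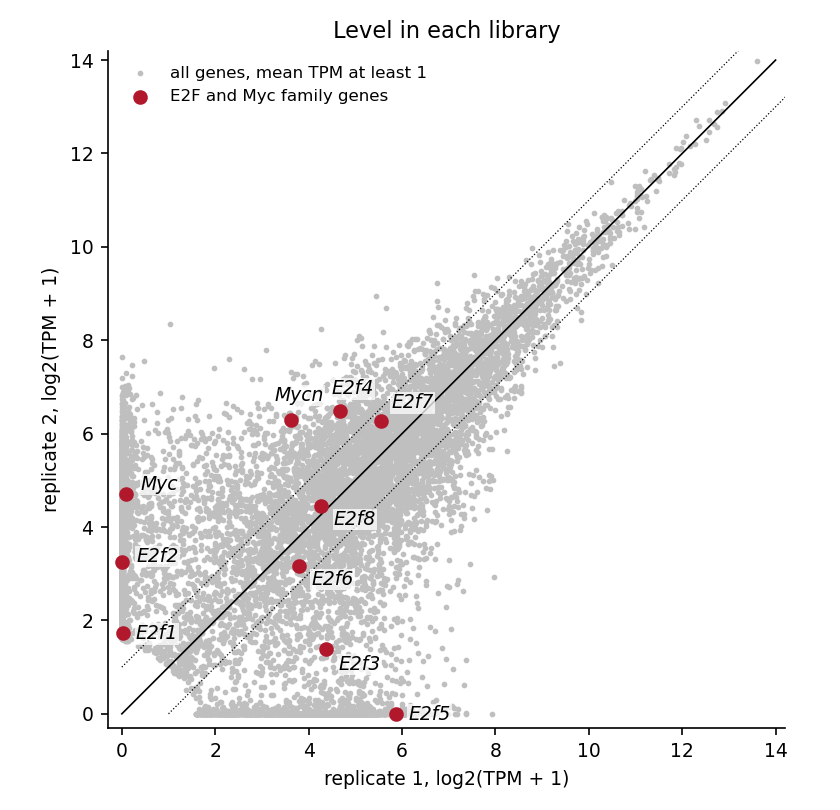
Each point is a gene with a mean TPM of 1 or more, placed by log2(TPM + 1) in replicate 1 (x axis) and replicate 2 (y axis), with the 10 E2F and Myc family genes in red, the line of equality and dotted lines 1 log2 unit off it. E2f7, E2f8 and E2f6 lie between the dotted lines, and Myc, E2f2, E2f1 and E2f5 lie on or next to an axis, where many other genes also lie.

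Put together, most E2F message by TPM came from repressor genes in both libraries. The 8 E2F genes summed to 179 TPM in replicate 1 and 206 TPM in replicate 2. E2f1 to E2f3 held 11.1% and 6.03% of it, E2f4 and E2f5 held 45.8% and 43.0%, E2f6 held 7.22% and 3.85%, and E2f7 and E2f8 held 35.9% and 47.1%. As means these are 8.56% ± 3.58, 44.4% ± 1.99, 5.53% ± 2.38 and 41.5% ± 7.95 (SD, n = 2). On coding transcripts alone E2f4 and E2f5 held 58.1% ± 4.38 and E2f7 and E2f8 held 25.7% ± 9.47 (SD, n = 2). Within the class of E2f4 and E2f5, whose share lay close in the 2 libraries, E2f5 supplied 32.05% of all E2F TPM in replicate 1 and 0% in replicate 2, and E2f4 supplied 13.7% and 43.0%. E2f8 held 10.3% and 10.1%. By counts, which favour long transcripts, the activators held 15.8% and 11.8%.

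**Figure D3:**
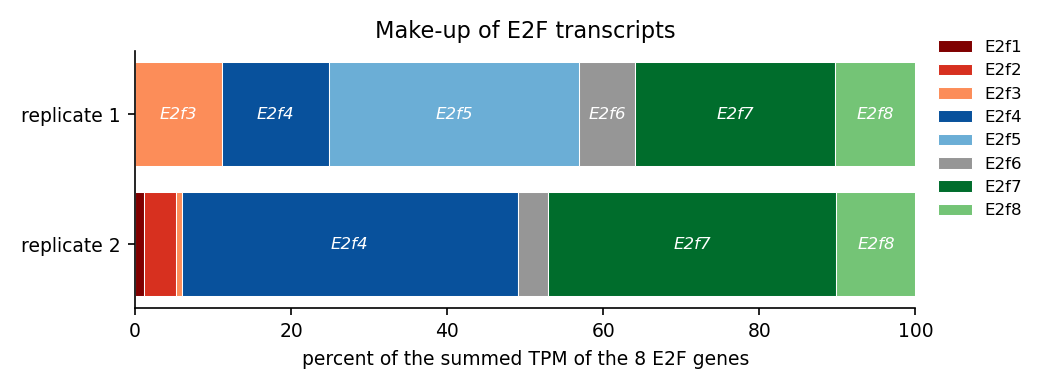
Share of the summed E2F TPM held by each of the 8 E2F genes (x axis, percent), 1 bar per library. The activators in red shades take 11.1% and 6.03%, the blue class keeps 45.8% and 43.0% although E2f5 fills most of it in replicate 1 and E2f4 all of it in replicate 2, and E2f7 and E2f8 in green take 35.9% and 47.1%.

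Mycn was above Myc in both libraries, and both were higher in replicate 2. Mycn (ENSMUSG00000037169.10, chromosome 12, 12936093 to 12941914, minus strand) had 11.3 TPM in replicate 1 and 77.3 TPM in replicate 2, from 559 and 3286 counts. Its log2 difference was 2.67, and the depth-scaled counts were 5.82 times as many in replicate 2 (95% counting interval 5.32 to 6.37). Myc (ENSMUSG00000022346.10, chromosome 15, 61985391 to 61990374) had 2 counts in replicate 1 and 1190 counts, 25.0 TPM, in replicate 2. Its CPM was 589 times as high in replicate 2 (95% counting interval 163 to 4866). These intervals cover counting error only. Within a library, Mycn had 280 times the counts of Myc in replicate 1 (interval 77.0 to 2314) and 2.76 times in replicate 2 (2.58 to 2.95), and 3.09 times its TPM in replicate 2. Mycn held 99.4% of the summed TPM of the pair in replicate 1 and 75.5% in replicate 2. Of genes with a mean from 20 to below 50 TPM, which include Mycn and E2f5, 56.1% differed 2-fold, and both of these members did. Of the 5 members that differed 2-fold in all, E2f4, Myc and Mycn were higher in replicate 2 and E2f3 and E2f5 in replicate 1. Of all 3940 genes that differed 2-fold, 2042 were higher in replicate 2. Set against the genes tested, these are 3 of 8 members and 26.6% of all genes. Over all 10 members the median log2 difference was 1.21, against 0.12 for all 11107 genes whose mean TPM was 1 or more.

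Transcript tables showed which forms the reads were assigned to. All 34 listed transcripts of the 10 genes matched GENCODE names. Of the 6 genes detected in both libraries, 5 had the same leading transcript in each, 2 of these, E2f4 and E2f6, because only 1 transcript is listed. E2f7 was the exception. In replicate 1 its leading form was E2f7-208, a retained-intron transcript, with 76.2% of its TPM, and in replicate 2 it was the coding E2f7-204, with 40.8%. Replicate 2 also gave 22.5 TPM to E2f7-206, annotated for nonsense-mediated decay, and 17.8 TPM to the short non-coding E2f7-203, which are 817 and 438 bases long and took 358 and 134 counts. Coding transcripts of E2f7 thus had 9.79 TPM in replicate 1 and 31.3 TPM in replicate 2, a log2 difference of 1.58, past 2-fold, where the whole gene had 0.72.

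Short transcripts also weighed on E2f3 and Mycn. For E2f3, 6.18 of the 19.8 TPM in replicate 1 came from 16.2 counts on E2f3-202, a non-coding form 216 bases long that begins just inside the internal start. The coding E2f3-201, which begins at the first start, had 13.6 TPM in replicate 1 and 1.61 TPM in replicate 2. The 2 starts of mouse E2f3 are known to give the proteins E2F3a and E2F3b, and their ratio was not analysed here, since E2f3-201 and E2f3-202 are the 2 transcripts in the tables. For Mycn, the leading form was Mycn-202, with 86.1% and 49.0% of its TPM. The non-coding Mycn-203, 681 bases long, took 22.6 TPM in replicate 2 from 292 counts, and coding transcripts summed to 9.98 and 54.7 TPM. In Myc, replicate 2 divided 561 counts each to Myc-201 and Myc-205, which have the same bounds and length, so that pair cannot be separated. E2f8 was mostly E2f8-201, at 15.6 and 20.9 TPM.

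**Figure D4:**
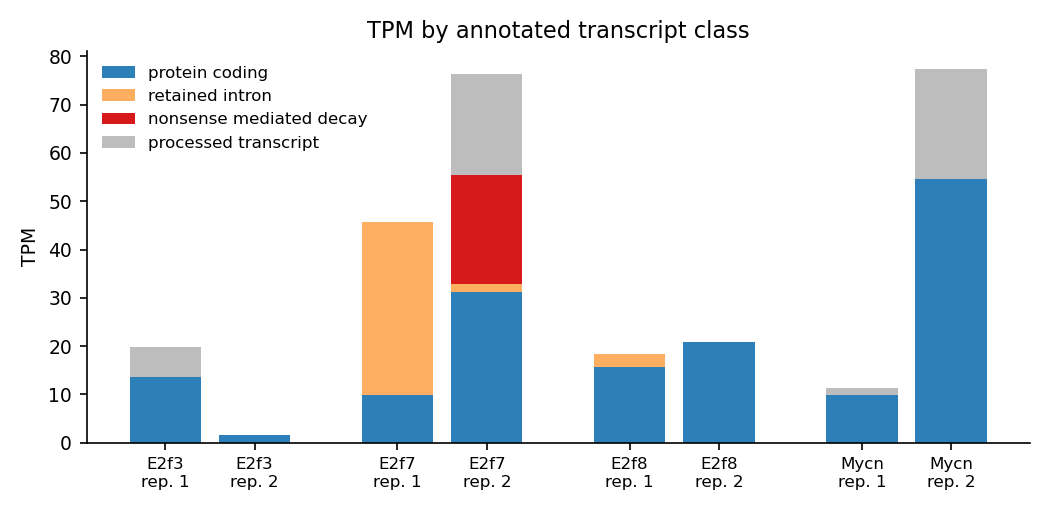
TPM of E2f3, E2f7, E2f8 and Mycn in each library (y axis), stacked by annotated transcript class. The E2f7 bar is mostly retained intron in replicate 1, with 9.79 TPM coding, and holds 31.3 TPM coding in replicate 2, while E2f8 is mostly coding in both.

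Of the genes that work with the E2F proteins, some were detected in both libraries, some in 1 alone and Max in neither. For the detection counts of all lists below, the background was 30.4% of protein-coding genes detected in both libraries. Among genes detected in at least 1 library it was 62.5%. Both DP genes, which encode the partners that E2F1 to E2F6 need to bind DNA, were detected in both libraries. Tfdp1 was at 70.4 and 56.5 TPM and Tfdp2 at 34.0 and 10.4 TPM. Tfdp2 differed 2-fold by TPM, but by CPM its log2 difference was -0.82, short of 2-fold. Of the 3 pocket protein genes, Rb1 was at 28.9 and 28.2 TPM and Rbl1 at 18.96 and 39.8 TPM. The close TPM values of Rb1 came from unequal counts, 2177 and 386. Rbl2, whose product p130 pairs with E2F4 and E2F5 in resting cells, had 1906 counts, 17.6 TPM, in replicate 1 and 0 counts in replicate 2. Of 7 genes of the MuvB core and its partners B-Myb and FoxM1, 3 were detected in both libraries, namely Rbbp4 at 497 and 398 TPM, Lin52 at 34.4 and 55.9 TPM and Mybl2 at 19.9 and 42.4 TPM, and 4 in one alone. These 4 were Lin9, Lin37 and Lin54 in replicate 2, at 33.4, 77.1 and 5.35 TPM, and Foxm1 in replicate 1, at 6.63 TPM. Of 5 at a mean of 10 TPM or more, 3 differed 2-fold, Lin9, Lin37 and Mybl2, all higher in replicate 2. Of all genes at that level, 51.3% differed 2-fold, and 26.6% differed 2-fold with replicate 2 higher. Of 6 genes for partners of E2F6 in its Polycomb-type complex, 4 were detected in both, led by Cbx3 at 623 and 579 TPM, Rnf2 at 146 and 57.0 TPM and Mga at 42.9 and 63.2 TPM, with L3mbtl2 at 84.0 and 19.2 TPM. The counts of Mga, 2253 and 6583, lay further apart than its TPM, with a log2 difference of 1.52 by CPM. Of 4 at a mean of 10 TPM or more, 2 differed 2-fold, Rnf2 and L3mbtl2, both lower in replicate 2. Pcgf6 was at 19.02 TPM in replicate 1 alone, and Max was listed at 0 in both.

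All 22 E2F target genes were detected in both libraries, with a median log2 difference of -0.02, 10 higher in replicate 2 and 12 in replicate 1. The highest were the ribonucleotide reductase gene Rrm2 at 462 and 691 TPM, Cdk1 at 444 and 432 TPM and the replication clamp gene Pcna at 407 and 328 TPM. Of 21 with a mean of 10 TPM or more, 7 differed 2-fold, against 51.3% of all genes at that level. Among the 7 was the cyclin gene Ccne1, named after its values were seen, at 2.04 and 54.9 TPM. The E2F targets are more abundant than the members, with a summed 3343 and 3739 TPM. The share of all genes that differed 2-fold fell with level, as given above. Of the 18 targets with a promoter window, 10 (55.6%) held an E2F word, close to the members' 57.1%. All 9 upstream genes were detected in both, with a median of -0.12, led by Cdk4 at 2687 and 2992 TPM, Ccnd2 at 246 and 284 TPM and Ccnd1 at 249 and 118 TPM, the kinase and cyclins that inactivate pocket proteins. Of 8 with a mean of 10 TPM or more, 2 differed 2-fold, against 51.3% of all genes at that level. These were Ccnd1 and Ccnf, both lower in replicate 2.

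Max, the partner Myc and Mycn need, was listed at 0 counts in both libraries. Counting error alone would allow up to 0.105 CPM in replicate 1 and 0.104 CPM in replicate 2, but the files give no reason for the 0, so it is not read as absence of its message. Of 10 genes of the Max network, 6 were detected in both libraries, 3 in one alone and Max in neither. Of all genes detected in at least 1 library, 62.5% were detected in both. Mlx was at 37.8 and 162 TPM, Mga at 42.9 and 63.2 TPM, Mxd3 at 0.11 and 66.7 TPM, and Mycl, which encodes L-Myc, at 16.6 and 26.03 TPM. Mxd1 was detected in replicate 1 alone, at 17.8 TPM, and Mnt in replicate 2 alone, at 8.14 TPM. The network had a median log2 difference of 0.62, with 7 of 9 higher in replicate 2, and the median was 1.35 over genes with a mean of 10 TPM or more and 1.39 with edgeR's TMM factors. Of 4 tested, 2 differed 2-fold, Mlx and Mxd3, against 51.3% of all genes. By CPM the log2 difference of Mlx was 0.70 and that of Mga 1.52. Of 10 genes of Myc cofactors and turnover, 9 were detected in both, led by Aurka, whose kinase stabilises N-Myc, at 101 and 258 TPM, Huwe1 at 180 and 85.6 TPM and Ruvbl1 at 134 and 122 TPM. Zbtb17, which encodes Miz-1, was detected in replicate 2 alone, at 22.6 TPM. The median of the list was -0.05. Of 9 with a mean of 10 TPM or more, 4 differed 2-fold, against 51.3% of all genes at that level. Aurka and Zbtb17 were higher in replicate 2 and Huwe1 and Trrap lower. By CPM the log2 difference of Huwe1 was -0.65. The direction of Trrap rests on TPM, since its counts, 2104 and 3877, went the other way.

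Of 12 Myc target genes, 11 were detected in both libraries, with a median log2 difference of 0.44, or 0.22 with edgeR's TMM factors, and 6 of 11 higher in replicate 2. Srm was detected in neither. The most abundant hardly differed: Ldha at 2106 and 1818 TPM, the nucleophosmin gene Npm1 at 1096 and 1093 TPM and Nop56 at 514 and 428 TPM. Of the 11, all with a mean of 10 TPM or more, 3 differed 2-fold, against 51.3% of all genes at that level. These were Odc1, Tfrc and Fbl, all higher in replicate 2. These 3 of 11 are close to the 26.6% of all genes tested that differed 2-fold with replicate 2 higher. Odc1 was at 11.0 and 126 TPM, Tfrc at 6.62 and 82.5 TPM and Fbl at 18.5 and 64.7 TPM. Tfrc, the transferrin receptor gene, is also high in red cell precursors, and the haemoglobin share was 3.11% and 3.73% in the same order. Its part was not tested. An E-box stood in promoter windows of 4 of the 9 Myc targets that had one (44.4%), against 8.09% of all genes.

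**Figure D5:**
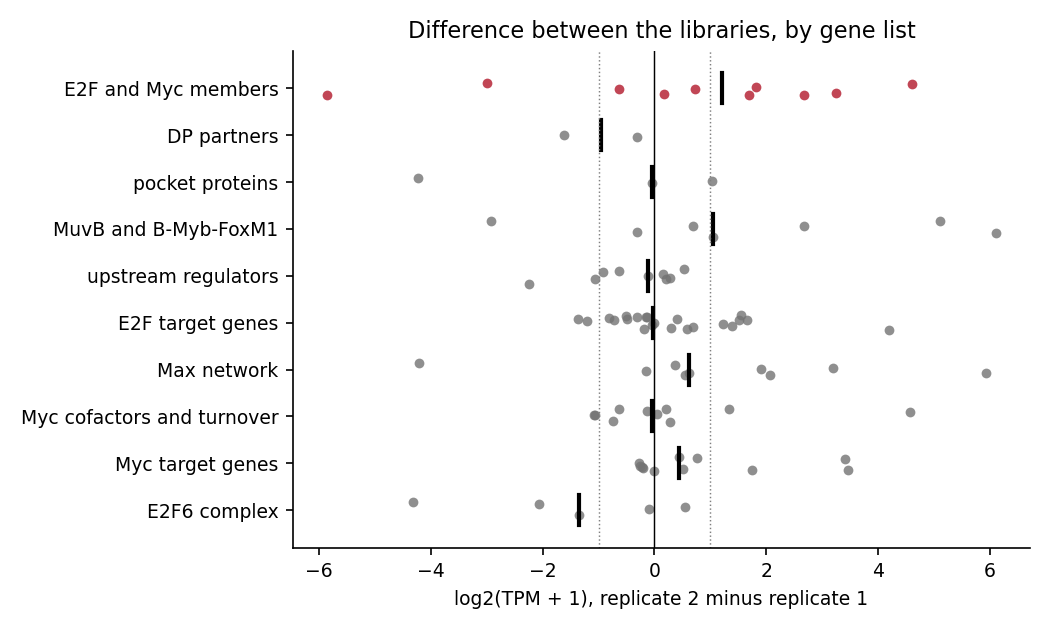
Difference of log2(TPM + 1), replicate 2 minus replicate 1 (x axis), of each gene with a mean TPM of 1 or more, by list, with a bar at each list's median and dotted lines 1 unit from 0. The members run from -5.86 to 4.60 with a median of 1.21, and the E2F target genes centre on -0.02.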

How the data were processed

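RNA of pooled forebrains was measured in 2 libraries of one group, replicates 1 and 2, numbered by the labels. The authors deposited expected counts, which are estimated reads and need not be whole, with TPM over all rows, spike-ins included, and FPKM, per the file headers. The authors' deposited transcript tables also give, for each transcript, its percent of the gene's TPM. Posterior limits and SDs deposited by the authors were read as a score and are not printed. The deposited text names assembly mm10 and annotation M4. Aligner, quantification program and use of strand were not given in the sources used here. Names, coordinates (1-based) and transcript classes came by ID from GENCODE M21, on the same assembly, which matched 42462 of 43346 gene rows. Promoters are RefSeq's on GRCm38.p6, the same assembly.

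A TPM of 1 or more counted as detected. A gene was called 2-fold different at an absolute difference of log2(TPM + 1) of at least 1, for a mean TPM of at least 10. The pseudocount of 1 understates differences of low genes. Across all genes the same rules gave the background shares. Counting intervals are 95% Clopper-Pearson intervals, which cover counting error only, as reads without molecular identifiers need not be separate molecules. Scaling by edgeR 4.0.16 TMM factors and DESeq2 1.42.0 size factors, on expected counts rounded to whole numbers, was an alternative, and no count test was run because there is one group. Python 3.11.15 and pandas 2.3.3 were used. The members, the lists and the E2F and E-box words were chosen with earlier results of these data known. All 10 members are named, with the 3 highest genes of each list, all genes of lists of up to 3, groups of 5 or fewer, and the 3 protein-coding genes nearest in level to the highest member. Of the cell type markers, those of forebrain are named, with 1 not reported here, and Dcx was named after its values were seen.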

Additional observations from a re-analysis of the deposited data

How the results depend on the processing

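With 2 libraries and 1 cell-equivalent of RNA in each, a gene at 0 in a library may still be expressed in the tissue. No paired analysis was possible because the study has a single group of 2 libraries. The members that differed 2-fold stayed at E2f3, E2f4, E2f5, Myc and Mycn with a pseudocount of 0.1 or 5, with TPM rescaled to genes alone, posterior mean TPM, FPKM, edgeR TMM or DESeq2 size factors and, an alternative chosen after seeing the data, CPM over all rows. With no filter, or a mean TPM of at least 1, E2f1 and E2f2 joined them, 7 of 10, and on coding transcripts alone, also chosen afterwards, E2f7 did. Members detected in both libraries numbered 6 at 0.5 TPM or by 10 counts, 5 at 5 TPM and 4 at 10 TPM, and single libraries, a later choice, detected 9 without replicate 1 and 7 without replicate 2. By counts in place of TPM, the mean share of E2F message was 13.8% for the activators, against 8.56% by TPM, and 36.4% for E2f4 and E2f5, against 44.4%. The ratio of Mycn to Myc, 3.53 from mean TPM, ran from 3.09 without replicate 1 to 161 without replicate 2, where Myc had 2 counts. Class shares without one replicate ran from 6.03% to 11.1% for the activators, 43.0% to 45.8% for E2f4 and E2f5, 3.85% to 7.22% for E2f6 and 35.9% to 47.1% for E2f7 and E2f8. On coding transcripts alone the mean share was 58.1% for E2f4 and E2f5 and 25.7% for E2f7 and E2f8, against 41.5% with all transcripts. None of the 5 members that differed 2-fold changed sign under these scalings. With edgeR's TMM factors the list medians near 0 did, to 0.04 for E2F targets and 0.08 for Myc cofactors, and that of the pocket proteins was -2.46, against -0.04 by TPM, and 0.50 at a mean TPM of at least 10. The E2F6 complex list had -0.72 at that level, against -1.34. The upstream list had -0.24 there and -0.32 with TMM factors, against -0.12, and the DP partners -0.61 with TMM factors, against -0.96. The Myc cofactor list had -0.14 at that level. By TMM, DESeq2 or CPM scaling E2f8 had a log2 difference of 0.32, 0.33 or 0.35, each above that of E2f7.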
